A study of Mus musculus with 12 samples.

Results

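The genes described here encode the contractile apparatus and the energy supply of skeletal muscle fibres, read out in RNA from mouse lumbar dorsal root ganglia. A list of 40 such genes was matched by symbol to the deposited count tables, and a gene was kept when its reads summed to at least 10 over the 6 RNA libraries. That left 39 genes among the 44345 gene symbols of the tables and the 20375 that reach the same minimum. Sarcolipin (Sln), an inhibitor of the muscle calcium pump, had 3 reads in all, each of them in MS275 replicate 1, and fell outside; the kept genes with the fewest reads were Myl2 with 98, Ampd1 with 111 and Myh7 with 120. The list was drawn up from the difference between MS275 and vehicle libraries in these same data, so every value of that contrast below is a description; counts of these genes that pass the fit across all genes are given beside the background, and nothing is read from them.

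The libraries came from L4 to L6 ganglia of C57BL/6 mice aged 6 to 8 weeks, taken 24 h after dorsal column axotomy, a cut through the ascending sensory tract of the spinal cord. MS275, an inhibitor of class I histone deacetylases, was given intraperitoneally at 12 mg/kg, with the surgery and a second time 2 h ahead of tissue collection, and the other animals received the vehicle of Tween80, PEG300 and DMSO on the same schedule. Each group held 3 RNA libraries, each made from ganglia pooled over 2 mice, so the spread between libraries is a spread between pools and single animals are not seen. All mice of both groups were injured, and no uninjured ganglia were analysed here. Open chromatin was profiled by ATAC-seq in other mice, 3 libraries per group from 1 mouse each, and was deposited as 1 combined list of open regions per treatment.

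Skeletal muscle contracts when myosin heads of the thick filament pull on actin of the thin filament, under the control of calcium that the sarcoplasmic reticulum releases and takes back. Fast and slow fibres build the same machine from different isoforms of myosin, of its light chains and of the 3 troponin subunits, and mouse muscle is made mostly of fast fibres. A dorsal root ganglion consists of sensory neurons, satellite glia, Schwann cells, vessels and connective tissue, and muscle fibres are not a known component of it.

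The sequences from 250 bases before to 50 after the start are shown for 6 of the genes because their behaviour across libraries spans the range described below: Myh4, Acta1 and Atp2a1 were at least 50-fold higher in MS275 replicate 1 than in vehicle replicate 2, Ldb3 hardly varied, and Tnni1 and Myh7 are slow fibre genes that did not follow the fast ones. They are taken from RefSeq on GRCm38.p6, the patch release of mm10, and 29 of the 39 genes had an entry. Capitals mark matches to CAGCTG, an E-box core bound by myogenic factors, to the MEF2 and CArG consensus motifs, all searched on both strands, and to TATAAA on the strand of the gene. No 2 marked matches overlapped in these 6 sequences, and positions below give the leftmost base of a match counted from the start.
Myh4, chr11:67237562-67237861, plus strand: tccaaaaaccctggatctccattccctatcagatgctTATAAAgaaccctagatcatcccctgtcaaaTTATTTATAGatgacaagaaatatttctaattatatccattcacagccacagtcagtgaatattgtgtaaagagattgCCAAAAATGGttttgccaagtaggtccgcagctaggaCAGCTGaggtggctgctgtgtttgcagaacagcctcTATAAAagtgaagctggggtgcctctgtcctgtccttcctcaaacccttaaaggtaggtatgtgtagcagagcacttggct
Acta1, chr8:123894726-123895025, minus strand: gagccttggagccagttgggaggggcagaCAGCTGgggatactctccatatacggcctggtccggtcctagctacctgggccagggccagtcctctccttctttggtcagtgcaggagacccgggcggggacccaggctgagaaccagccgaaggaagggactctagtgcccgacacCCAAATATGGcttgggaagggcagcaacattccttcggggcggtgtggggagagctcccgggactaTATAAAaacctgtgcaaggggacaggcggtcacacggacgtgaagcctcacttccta
Atp2a1, chr7:126463024-126463323, minus strand: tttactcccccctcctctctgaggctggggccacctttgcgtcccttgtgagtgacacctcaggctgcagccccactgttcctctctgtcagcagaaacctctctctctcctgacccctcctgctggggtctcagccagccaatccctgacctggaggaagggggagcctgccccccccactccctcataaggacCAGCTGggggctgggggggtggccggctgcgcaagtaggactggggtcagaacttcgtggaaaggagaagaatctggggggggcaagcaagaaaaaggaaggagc
Ldb3, chr14:34588632-34588931, minus strand: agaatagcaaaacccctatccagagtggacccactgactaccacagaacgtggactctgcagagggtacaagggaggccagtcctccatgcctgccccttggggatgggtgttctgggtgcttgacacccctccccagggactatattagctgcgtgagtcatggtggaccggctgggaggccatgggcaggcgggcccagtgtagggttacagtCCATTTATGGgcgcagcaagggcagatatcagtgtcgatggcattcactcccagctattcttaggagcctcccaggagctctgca
Tnni1, chr1:135799171-135799470, plus strand: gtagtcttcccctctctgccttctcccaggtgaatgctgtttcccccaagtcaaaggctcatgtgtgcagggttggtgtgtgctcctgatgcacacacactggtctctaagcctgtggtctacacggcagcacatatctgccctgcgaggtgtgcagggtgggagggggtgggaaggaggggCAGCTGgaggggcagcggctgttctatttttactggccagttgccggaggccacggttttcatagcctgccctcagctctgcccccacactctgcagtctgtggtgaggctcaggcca
Myh7, chr14:54994577-54994876, minus strand: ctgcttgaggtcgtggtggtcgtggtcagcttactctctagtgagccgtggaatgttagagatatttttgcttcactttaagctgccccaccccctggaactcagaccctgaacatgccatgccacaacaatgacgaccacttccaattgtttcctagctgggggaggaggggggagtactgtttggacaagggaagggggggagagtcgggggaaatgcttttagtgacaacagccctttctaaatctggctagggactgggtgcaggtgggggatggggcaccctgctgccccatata

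The Myh4 window held all 4 kinds of match, with CAGCTG at -67, MEF2 at -182, CArG at -104 and TATAAA at -213 and -31. Acta1 held CAGCTG at -221, CArG at -73 and TATAAA at -7, Atp2a1 held CAGCTG at -55, Ldb3 held CArG at -35 and Tnni1 held CAGCTG at -68. The Myh7 window held none of the 4. Of the 29 windows, 15 held CAGCTG (51.7%, against 16.1% of the 27025 RefSeq windows of the same length), 5 held a MEF2 match (17.2% against 3.26%), 4 a CArG match (13.8% against 1.57%) and 5 TATAAA (17.2% against 8.88%). The looser E-box CANNTG, which includes CAGCTG, was found in 25 of 29 windows (86.2%) and in 72.1% of all windows. CAGCTG lay in 4 of 8 windows of fast genes, 3 of 7 of slow genes and 8 of 14 of the other genes, and the 5 MEF2 matches lay in Myh4, Myh1, Ttn, Xirp2 and Pgam2, none of them a slow gene. A match is a description of the letters and not a binding site.

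Together the 39 genes took a very small part of each library, and the part differed widely between replicates of one group as well as between groups. Levels are CPM, reads scaled by the normalised library size to a common total; they are not divided by transcript length, so they serve to compare libraries and not genes. The summed level was 1014.7, 166.5 and 195.7 CPM in MS275 replicates 1, 2 and 3, against 58.6, 48.9 and 126.7 CPM in vehicle replicates 1, 2 and 3. The sums did not overlap between the groups, but MS275 replicate 1 stood 6.09-fold and 5.18-fold above the other 2 MS275 libraries, and vehicle replicate 3 stood 2.16-fold and 2.59-fold above the other 2 vehicle libraries. The ratio of the group means was 5.88, and 2.32 without MS275 replicate 1. As a share of assigned reads, the genes took 0.102%, 0.0162% and 0.0193% in MS275 libraries and 0.00594%, 0.00495% and 0.0128% in vehicle libraries. The reads behind them numbered 48549 in MS275 replicate 1 and 2678 in vehicle replicate 1, so counting error is small beside the differences between libraries. In bulk tissue, fewer cells of a type and less RNA per cell cannot be told apart.

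The libraries held 34992533 to 56542966 reads assigned to genes under MS275 and 39148369 to 60370523 under vehicle, and replicates differed by more than sampling noise in both groups. The tissue label fitted the data: 12 sensory neuron genes summed to 13484.3 to 14889.6 CPM in MS275 libraries and 13358.3 to 13956.4 CPM in vehicle libraries.

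**Figure D1:**
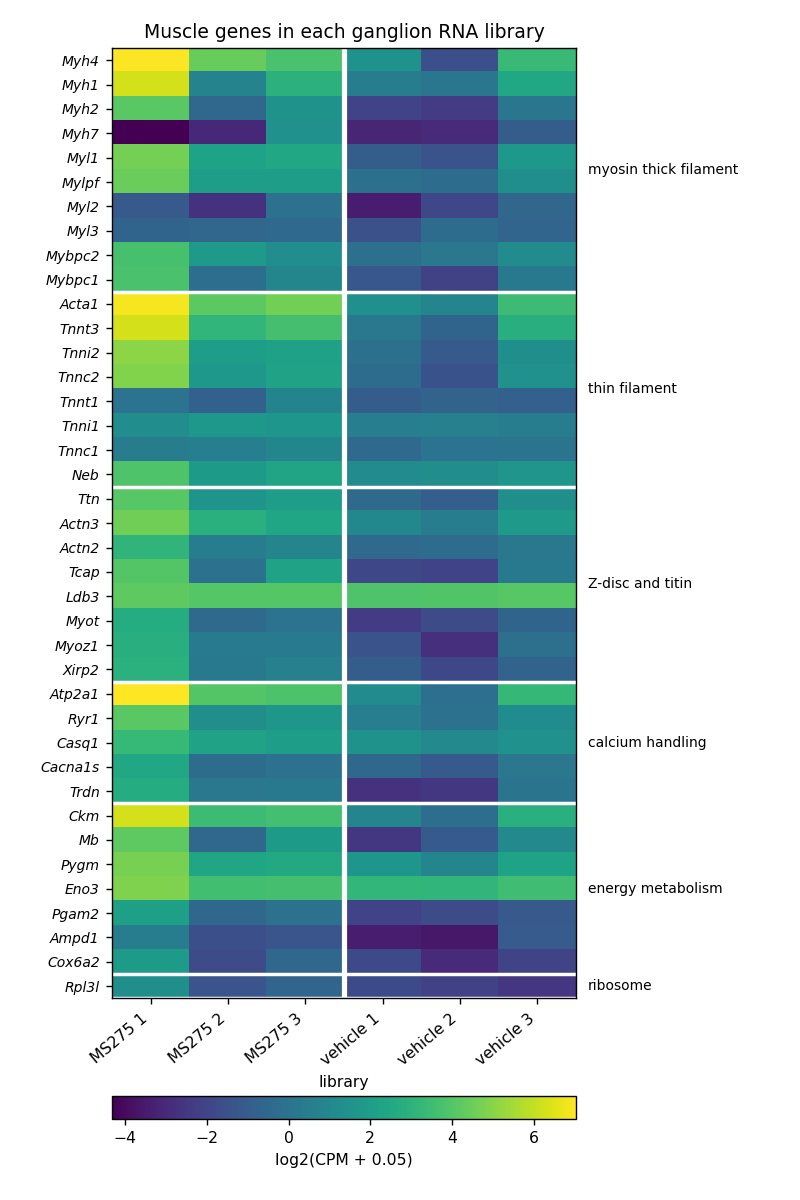
Level of each of the 39 genes (rows, grouped by role) in each RNA library (columns), as log2 of CPM plus 0.05. MS275 replicate 1 is the highest library for 33 of 39 genes; Ldb3 stays near one level in all 6 libraries, and 6 slow fibre genes (Myh7, Myl2, Myl3, Tnnt1, Tnni1 and Tnnc1) do not peak in MS275 replicate 1.

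The thick filament genes showed the widest range. Their summed level was 296.7, 37.0 and 41.7 CPM in MS275 libraries and 7.22, 4.91 and 27.7 CPM in vehicle libraries. Myh4, the myosin heavy chain of the fastest, type IIb fibres, had 126.0, 20.9 and 13.5 CPM under MS275 and 2.69, 0.295 and 10.4 CPM under vehicle, a log2 fold change of 3.69 (SE 1.02). The groups did not overlap, yet vehicle replicate 3 came close to MS275 replicate 3. Myh1, the heavy chain of type IIx fibres, had 79.0, 1.62 and 7.73 CPM under MS275 and 1.33, 1.05 and 5.55 CPM under vehicle (log2 fold change 3.57, SE 1.21). Here the groups overlapped, since vehicle replicate 3 lay above MS275 replicate 2, and the log2 fold change was 0.82 (SE 0.69) without MS275 replicate 1. Myh2, the heavy chain of type IIa fibres, had 17.6, 0.673 and 2.81 CPM under MS275 and 0.197, 0.147 and 1.06 CPM under vehicle, again with vehicle replicate 3 above MS275 replicate 2.

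Myh7, the slow fibre heavy chain that the heart also uses, behaved differently from the fast heavy chains. It had 0, 0.0728 and 2.61 CPM under MS275, which are 0, 4 and 90 reads, and 0.0656, 0.0819 and 0.454 CPM under vehicle, which are 3, 5 and 18 reads. The library with most reads of the fast heavy chains thus had no Myh7 read, where the limit of a count of 0, taken at 3 reads, is 0.0627 CPM, and 90 of the 120 reads came from MS275 replicate 3. With so few reads elsewhere, Myh7 did not pass the filter on low counts and has no fold change over all 6 libraries.

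The light chains divided in the same way. Myl1, the fast essential light chain, had 24.9, 4.79 and 5.39 CPM under MS275 and 0.459, 0.328 and 3.23 CPM under vehicle. Mylpf, the fast regulatory light chain, had 21.6, 3.97 and 3.91 CPM under MS275 and 0.875, 0.77 and 2.45 CPM under vehicle. For both, every MS275 library lay above every vehicle library. The slow regulatory light chain Myl2 had 0.418, 0.109 and 0.898 CPM under MS275 and 0.0437, 0.229 and 0.631 CPM under vehicle. The slow essential light chain Myl3 had 0.585, 0.619 and 0.695 CPM under MS275 and 0.306, 0.754 and 0.606 CPM under vehicle. Both slow light chains overlapped between the groups, and Myl3 was highest in a vehicle library. The log2 fold changes were 3.24 (SE 0.85) for Myl1 and 2.91 (SE 0.72) for Mylpf, against 0.62 (SE 0.81) for Myl2 and 0.16 (SE 0.33) for Myl3.

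Myosin binding protein C comes in a fast isoform, Mybpc2, and an isoform named slow, Mybpc1, which fast fibres also contain. Mybpc2 had 13.0, 3.46 and 2.29 CPM under MS275 and 0.875, 1.08 and 2.17 CPM under vehicle. Mybpc1 had 13.7, 0.819 and 1.82 CPM under MS275 and 0.372, 0.18 and 1.14 CPM under vehicle. Mybpc1 was the one gene of the slow list that peaked in MS275 replicate 1, with a log2 fold change of 3.38 (SE 1.03), against 2.22 (SE 0.61) for Mybpc2.

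Thin filament genes summed to 278.8, 42.6 and 57.6 CPM in MS275 libraries and 9.97, 8.47 and 28.8 CPM in vehicle libraries. Acta1, skeletal muscle actin, had 118.8, 17.9 and 24.4 CPM under MS275 and 2.52, 1.77 and 11.0 CPM under vehicle (log2 fold change 3.48, SE 0.83). Its groups did not overlap, and within vehicle replicate 3 was the highest library. Nebulin (Neb), the ruler of thin filament length, had 14.8, 3.57 and 4.87 CPM under MS275 and 2.19, 2.41 and 3.0 CPM under vehicle (log2 fold change 1.62, SE 0.46), a narrower range than Acta1.

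Troponin makes the thin filament respond to calcium, and each of its 3 subunits has a fast and a slow gene. The fast tropomyosin-binding subunit Tnnt3 had 78.3, 8.77 and 12.7 CPM under MS275 and 1.12, 0.573 and 6.84 CPM under vehicle. The fast inhibitory subunit Tnni2 had 33.3, 3.89 and 4.46 CPM under MS275 and 0.853, 0.41 and 2.5 CPM under vehicle. The fast calcium-binding subunit Tnnc2 had 29.2, 3.31 and 4.6 CPM under MS275 and 0.766, 0.311 and 2.6 CPM under vehicle. All 3 fast subunits followed the order of Acta1, with MS275 replicate 1 far above the rest and vehicle replicate 2 lowest, and their log2 fold changes were 3.66 (SE 0.99), 3.57 (SE 0.92) and 3.44 (SE 0.92).

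The slow troponin genes had a narrower range across libraries than their fast partners. Tnnt1 had 0.94, 0.528 and 1.71 CPM under MS275 and 0.459, 0.557 and 0.505 CPM under vehicle. Tnni1 had 2.32, 3.31 and 3.1 CPM under MS275 and 1.4, 1.49 and 1.36 CPM under vehicle. Tnnc1 had 1.3, 1.38 and 1.8 CPM under MS275 and 0.678, 0.95 and 0.984 CPM under vehicle. Tnni1 and Tnnc1 did not overlap between the groups, and for them MS275 replicate 1 was the lowest MS275 library, the reverse of their fast partners. Tnni1 had the smallest error beside its difference of the slow genes, with a log2 fold change of 1.03 (SE 0.18), and 1.18 (SE 0.16) without MS275 replicate 1. Tnnc1 is also the troponin C gene of the heart, and its log2 fold change was 0.76 (SE 0.23).

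**Figure D2:**
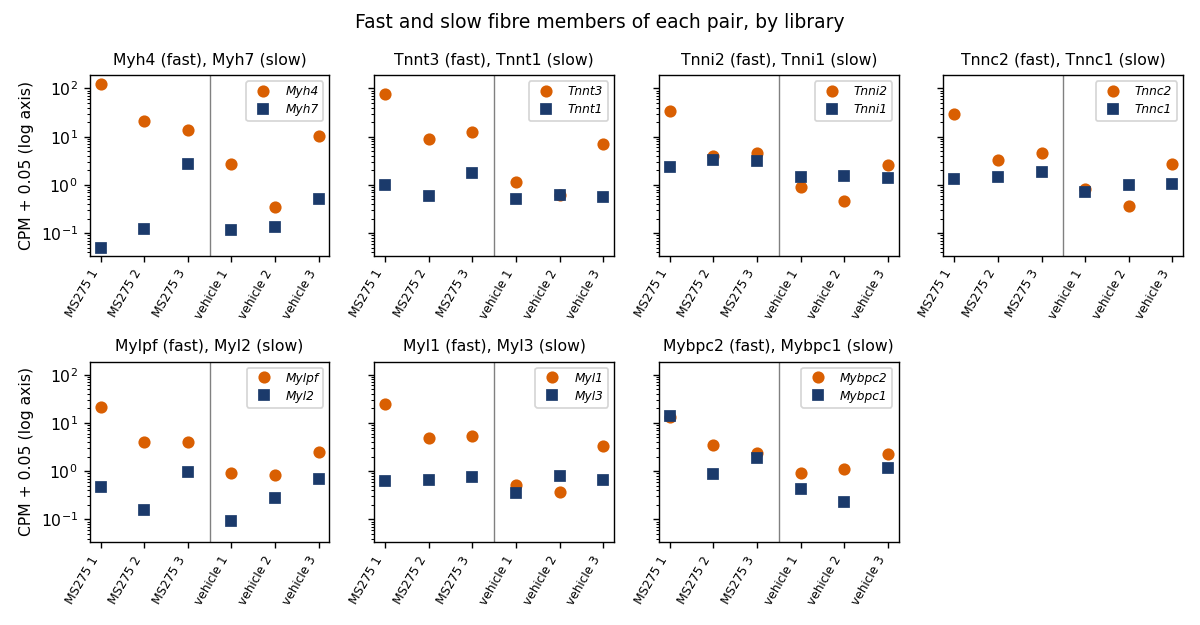
Level of the fast (circles) and slow (squares) gene of 7 pairs in each RNA library, as CPM plus 0.05 on a log axis. The fast gene peaks in MS275 replicate 1 in every pair, while among the slow genes only Mybpc1 peaks there and Myh7 has no reads in that library.

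The Z-disc anchors thin filaments and titin spans from it to the middle of the sarcomere. These genes summed to 104.9, 32.0 and 35.3 CPM in MS275 libraries and 19.3, 18.9 and 26.8 CPM in vehicle libraries. Titin (Ttn) had 16.8, 2.86 and 4.03 CPM under MS275 and 0.7, 0.491 and 2.5 CPM under vehicle (log2 fold change 2.76, SE 0.75). Actn3, the alpha-actinin of fast fibres, had 24.0, 7.39 and 5.01 CPM under MS275 and 1.95, 1.34 and 3.43 CPM under vehicle (log2 fold change 2.48, SE 0.57). Neither gene overlapped between the groups.

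Ldb3, which encodes a Z-disc scaffold protein, hardly varied. It had 18.4, 16.5 and 16.3 CPM under MS275 and 14.9, 15.5 and 16.7 CPM under vehicle, with a log2 fold change of 0.12 (SE 0.08). Vehicle replicate 3 lay above MS275 replicates 2 and 3, and MS275 replicate 1 was only 1.19-fold above vehicle replicate 2, the smallest such ratio above 1 among the 39 genes. The other 5 Z-disc genes had log2 fold changes of 2.22 to 3.91, and the top of that range was Tcap, the cap of the titin end, with 16.1, 0.928 and 4.63 CPM under MS275 and 0.219, 0.197 and 1.14 CPM under vehicle. Tcap overlapped, because vehicle replicate 3 lay above MS275 replicate 2, whereas Actn2, Myot, Myoz1 and Xirp2 did not overlap.

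Calcium handling genes summed to 170.1, 24.6 and 23.7 CPM in MS275 libraries and 7.2, 4.28 and 16.4 CPM in vehicle libraries. Atp2a1, the calcium pump of fast fibres, had 130.8, 15.8 and 14.4 CPM under MS275 and 2.21, 0.835 and 9.46 CPM under vehicle (log2 fold change 3.79, SE 1.01). Ryr1, the calcium release channel, had 17.5, 2.38 and 3.21 CPM under MS275 and 1.38, 0.917 and 2.25 CPM under vehicle. Casq1, which stores calcium in the reticulum, had 9.76, 4.59 and 4.0 CPM under MS275 and 2.84, 1.98 and 2.67 CPM under vehicle (log2 fold change 1.31, SE 0.32). None of these 3 overlapped between the groups. Triadin (Trdn), which links Casq1 to the channel, had a log2 fold change of 2.97 (SE 0.89) and no overlap, and Cacna1s, the voltage sensor of the muscle membrane, overlapped and had a log2 fold change of 1.76 (SE 0.72), which was 0.23 (SE 0.38) without MS275 replicate 1.

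Genes of energy metabolism summed to 161.6, 29.9 and 36.8 CPM in MS275 libraries and 14.6, 12.2 and 26.7 CPM in vehicle libraries. Ckm, muscle creatine kinase, had 79.1, 10.9 and 12.6 CPM under MS275 and 1.77, 0.819 and 7.44 CPM under vehicle (log2 fold change 3.45, SE 0.91). Its groups did not overlap. Pygm, muscle glycogen phosphorylase, had 25.9, 5.26 and 5.91 CPM under MS275 and 3.04, 1.74 and 4.74 CPM under vehicle (log2 fold change 2.0, SE 0.6). The glycolytic enzyme Eno3 had 28.8, 11.9 and 12.8 CPM under MS275 and 9.19, 8.88 and 11.5 CPM under vehicle, with a log2 fold change of 0.86 (SE 0.3). The ratio of MS275 replicate 1 to vehicle replicate 2 was 3.24 for Eno3 and 96.6 for Ckm. Myoglobin (Mb), the oxygen store of oxidative fibres, had 18.6, 0.637 and 3.62 CPM under MS275 and 0.131, 0.41 and 1.99 CPM under vehicle, with vehicle replicate 3 above MS275 replicate 2.

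Pgam2, a glycolytic mutase, Cox6a2, a respiratory chain subunit of striated muscle, and Ampd1, the muscle AMP deaminase, stayed at or under 4.31 CPM in every library, with log2 fold changes of 2.79, 3.17 and 2.1. Rpl3l, a ribosomal protein gene of striated muscle, had 2.47, 0.346 and 0.608 CPM under MS275 and 0.241, 0.18 and 0.126 CPM under vehicle (log2 fold change 2.62, SE 0.73). Rpl3l did not overlap between the groups, and vehicle replicate 3 was here the lowest library.

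Set side by side, 11 fast genes and 7 slow genes had unlike profiles. The fast genes summed to 577.5, 74.5 and 76.8 CPM under MS275 and 13.3, 7.14 and 49.7 CPM under vehicle. The slow genes summed to 19.3, 6.84 and 12.6 CPM under MS275 and 3.32, 4.24 and 5.68 CPM under vehicle. In the ratio of group means the fast sum was 10.4-fold higher with MS275 and 3.24-fold without MS275 replicate 1, and the slow sum 2.93-fold and 2.2-fold. The median log2 fold change was 3.57 over the 11 fast genes and 0.89 over the 6 slow genes in the fit, against 0.0 over all 16819 genes tested. Without MS275 replicate 1 the medians were 1.82 over 11 fast and 1.05 over 7 slow genes.

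Composition was read as the slow share of the reads of these 18 genes within each library. It was 3.23% (95% exact binomial interval 3.03 to 3.44), 8.41% (7.61 to 9.26) and 14.1% (12.9 to 15.4) in MS275 libraries and 20.0% (17.2 to 23.0), 37.3% (33.7 to 41.0) and 10.2% (9.01 to 11.6) in vehicle libraries. The intervals cover counting error only. The groups averaged 8.58% ± 5.44 with MS275 and 22.5% ± 13.7 with vehicle (SD, n = 3 each), and they overlapped, since vehicle replicate 3 lay below MS275 replicate 3. At the extremes the share ran against the summed level of all 39 genes. MS275 replicate 1 had the highest summed level and the lowest share, and vehicle replicate 2 the reverse. Of the libraries between, MS275 replicate 2, vehicle replicate 3 and vehicle replicate 1 followed this inverse order, with shares of 8.41%, 10.2% and 20.0%. MS275 replicate 3 did not. It lay above MS275 replicate 2 and vehicle replicate 3 in summed level and also in share. Fast gene reads enter both measures, so the measures are not independent. Restricted to the 3 troponin pairs, the slow share was 3.14%, 24.6% and 23.3% in MS275 libraries and 48.1%, 69.8% and 19.3% in vehicle libraries. Reads are not corrected for transcript length, so these shares compare libraries and do not give proportions of fibres.

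**Figure D3:**
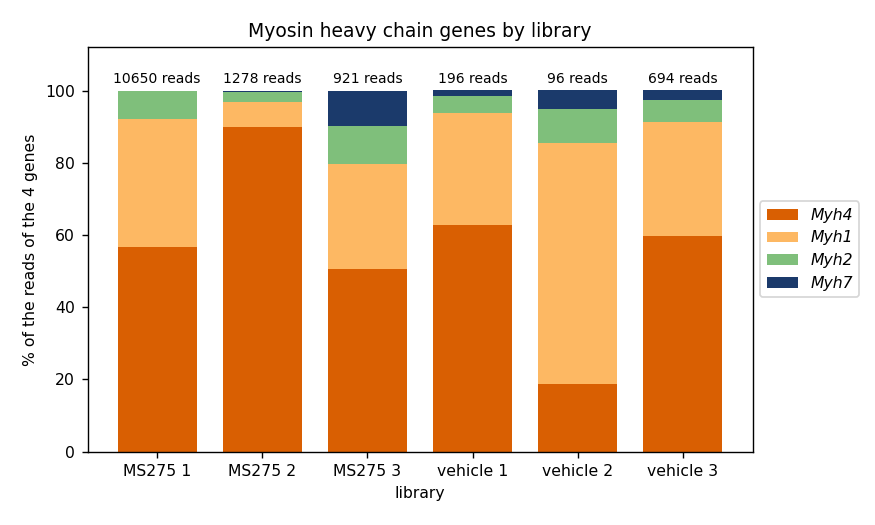
Share of the reads of 4 myosin heavy chain genes taken by each gene in each RNA library, with the number of reads above the bar. Myh4 holds 89.8% in MS275 replicate 2 and 18.8% in vehicle replicate 2, and Myh7 reaches 9.77% in MS275 replicate 3.

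The heavy chain genes gave each library its own mixture. Myh4 took 56.6%, 89.8% and 50.7% of the reads of the 4 heavy chains in MS275 libraries and 62.8%, 18.8% and 59.7% in vehicle libraries. Myh1 took 35.5%, 6.96% and 29.0% in MS275 libraries and 31.1%, 66.7% and 31.7% in vehicle libraries. Myh2 took 7.91%, 2.9% and 10.5% in MS275 libraries and 4.59%, 9.38% and 6.05% in vehicle libraries. MS275 replicate 2 was thus nearly all Myh4, with an interval of 88.0% to 91.4%, while in vehicle replicate 2 Myh1 led, with an interval of 56.3% to 76.0% over 96 reads. Myh7 took 0 of 10650 reads in MS275 replicate 1, where the limit taken at 3 reads is a share of 0.0282% and the exact binomial interval reaches 0.0346%, then 0.313% and 9.77% in the other MS275 libraries, and 1.53%, 5.21% and 2.59% in vehicle libraries. The 9.77% of MS275 replicate 3, with an interval of 7.93% to 11.9%, overlapped only the interval of vehicle replicate 2, which ran from 1.71% to 11.7% on 5 reads. Myh1, Myh2 and Myh4 are close relatives in 1 cluster on chromosome 11, so reads that match several of them may have been set aside and their split is uncertain.

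MS275 replicates 2 and 3 had similar summed levels but differed by gene. Of the 39 genes, 9 were higher in MS275 replicate 2, led by Myh4 (1.54-fold), Mybpc2 (1.51-fold) and Actn3 (1.47-fold), all fast fibre genes. In 9 others the level in MS275 replicate 2 was under 0.5 of that in MS275 replicate 3: Myh7 at 0.0279, Myl2 at 0.122, Mb at 0.176, Tcap at 0.2, Myh1 at 0.209, Myh2 at 0.24, Tnnt1 at 0.309, Cox6a2 at 0.383 and Mybpc1 at 0.449. Of the 7 slow genes, 4 were in that set, and Tnni1 (1.07), Myl3 (0.89) and Tnnc1 (0.77) were not. The 3 fast troponin genes, Ckm and Acta1 lay between 0.692 and 0.873.

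Across the 6 libraries most of the genes moved together. MS275 replicate 1 was the highest library for 33 of 39 genes, and of all 16819 genes tested 22.9% had their highest level there. Vehicle replicate 3 was the highest vehicle library for 33 of 39 genes, against 33.1% of all genes tested, and vehicle replicate 2 was the lowest of all libraries for 24. From high to low, the most frequent order was MS275 replicates 1, 3 and 2 followed by vehicle replicates 3, 1 and 2, which 11 genes shared exactly. The ratio of MS275 replicate 1 to vehicle replicate 2 had a median of 28.0 and reached 427.2 for Myh4; it was at least 10 for 29 genes, and between 0.5 and 2 for Myl2, Myl3, Tnnt1, Tnni1, Tnnc1 and Ldb3. Measured as Pearson r on log2 CPM with the sum of the other genes, over 6 libraries of 2 groups, 32 of 39 genes reached 0.9. The 7 below were Rpl3l at 0.89, Tnnc1 at 0.59, Tnnt1 and Tnni1 at 0.53, Myl2 at 0.45, Myl3 at 0.21 and Myh7 at -0.34. Without MS275 replicate 1, 26 genes reached 0.9. Rpl3l then had 0.58, Tnnc1 0.84, Tnnt1 0.57, Tnni1 0.77, Myl2 0.53, Myl3 0.36 and Myh7 0.65, so the negative value of Myh7 rested on that library. All points share the same libraries and MS275 replicate 1 lies far from the rest, so r is given as a description.

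By Pearson r of log2 CPM with the sum of the whole list, the genes outside it that most resembled the summed profile were mostly muscle genes too. Low counts were offset in another way than for the r above, so the 2 sets of r are not on the same footing. Of 83 other genes with an SD of at least 1 in log2 CPM over the 6 libraries, the 15 most alike ran from Des (r 0.9962) to Myo18b (r 0.9563), and 11 of the 15 stood on a list of 50 other skeletal muscle genes. That list was drawn up with earlier results of these data known. How many of the 83 stood on it was not counted, so 11 of 15 is a description. Des, the muscle intermediate filament, had 24.7, 4.75 and 6.78 CPM under MS275 and 1.97, 1.93 and 4.24 CPM under vehicle. Ckmt2, the mitochondrial creatine kinase of muscle, had 8.97, 0.437 and 1.71 CPM under MS275 and 0.0875, 0.147 and 0.606 CPM under vehicle, low in MS275 replicate 2 like Mb. The other genes of the 15 on the muscle list were Myom2, Trim63, Tpm2, Cmya5, Mylk2, Art1, Hspb7, Mylk4 and Nrap. The 4 not on the list were Hfe2, Fabp4, Igha and Myo18b, and absence from it does not make a gene a non-muscle gene. Fabp4 is an adipocyte and endothelial gene and Igha an immunoglobulin heavy chain gene.

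For the contrast by which the genes were chosen, all 38 in the fit had a positive log2 fold change, with a median of 2.85 and a range of 0.12 to 4.03. By edgeR's quasi-likelihood test with Benjamini-Hochberg adjustment over all genes tested, 19 of 38 passed an adjusted p of 0.05 as higher with MS275, where 5.1% of all genes did, and 0 of 38 as lower, where 5.89% did; nothing is read from these counts. None was lower at an unadjusted p under 0.05 or by DESeq2 or limma voom either. In 27 of 39 genes every MS275 library lay above every vehicle library, against 15.9% of all genes tested. Of the 19, the fast genes made up 9 of 11 and the slow genes 1 of 6, Tnni1. Without MS275 replicate 1, 11 of 39 passed as higher, where 5.43% of all genes did, 0 passed as lower, where 5.59% did, and the median was 1.35. Of the 19, 9 passed again, Neb and Tnnc1 passed only then, and Myh4, Myl1, Tnnt3, Tnnc2, Ttn, Tcap, Myoz1, Atp2a1, Ckm and Rpl3l no longer did. The count was 33 without MS275 replicate 2, 10 without MS275 replicate 3 and 8 without vehicle replicate 3. Over all genes, 2763 of 17115, 882 of 17158 and 728 of 17188 were called in either direction in those fits. The muscle gene count was 0 without vehicle replicate 1 and 0 without vehicle replicate 2. In each, 29 of the muscle genes were higher at an unadjusted p under 0.05. Calls over all genes also fell there, to 375 of 17201 and 261 of 17112.

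**Figure D4:**
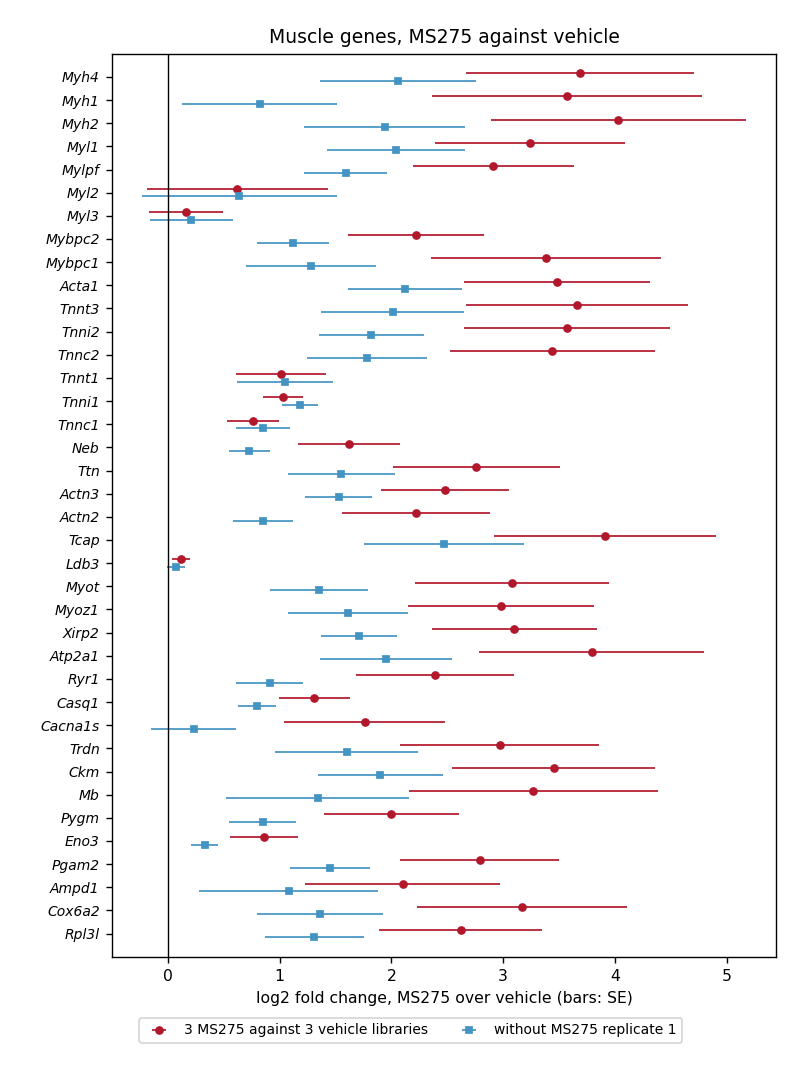
Log2 fold change of MS275 over vehicle for the 38 genes in the fit, with its SE, over all 6 libraries (circles) and without MS275 replicate 1 (squares). The circles run from 0.12 to 4.03 with a median of 2.85, and the squares of all genes in their fit have a median of 1.35, while for Myl2, Myl3, Tnnt1, Tnni1, Tnnc1 and Ldb3 the pair of symbols nearly coincides.

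The wider muscle programme gave a mixed picture. Of the 50 other skeletal muscle genes, 41 were in the fit. Of these, 9 passed the test as higher with MS275, where 5.1% of all genes did, and 0 as lower, where 5.89% did. The median log2 fold change was 1.15. Without MS275 replicate 1 it was 0.56, and 7 passed as higher, where 5.43% of all genes did. At an unadjusted p under 0.05, 31 of the list were higher and 0 lower, and DESeq2 called 16 and limma voom 6 higher and 0 lower. Over all genes, DESeq2 called 2275 of 20375 and limma voom 1775 of 16819 in either direction. The list was drawn up with earlier results of these data known, so its counts are a description. The 9 were Ckmt2 (3.82), Des (2.19), Sypl2 (1.9), Mylk4 (1.89), Apobec2 (1.63), Car3 (1.15), Smyd1 (1.01), Fbp2 (0.82) and Pvalb (0.28), as log2 fold changes. Pvalb, a calcium buffer of fast fibres that large sensory neurons also express, had 112.2, 100.5 and 116.4 CPM under MS275 and 86.3, 92.9 and 91.6 CPM under vehicle, without the peak in MS275 replicate 1. Smyd1, a chaperone-linked methyltransferase of muscle, had 8.38, 6.64 and 5.82 CPM under MS275 and 3.54, 2.85 and 4.04 CPM under vehicle, likewise with a small spread.

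Genes of muscle precursors, the neuromuscular junction, heart and smooth muscle were read in the same way. Among 11 precursor and embryonic genes, Mymk and Mymx were not analysed here and Pax7, Myod1, Myog and Myf5 had at most 10 reads in any library. Myf6, a myogenic factor of differentiated fibres, had 17, 1 and 2 reads under MS275 and 0, 1 and 1 under vehicle. Of the list, only Myh3 and Myh8, embryonic and neonatal heavy chains, were in the fit; edgeR, DESeq2 and limma voom called 0 of them and 0 had an unadjusted p under 0.05. The atrial heavy chain Myh6 had at most 1 read in a library. The 9 neuromuscular junction genes summed to 30.3, 33.7 and 32.6 CPM under MS275 and 34.1, 33.4 and 33.4 CPM under vehicle, and Chrnd, an acetylcholine receptor subunit, was the one among them with no reads. Of the 7 in the fit, Lrp4, the agrin receptor, passed as lower with a log2 fold change of -0.36 (SE 0.08), and 0 passed as higher by edgeR, DESeq2 or limma voom, with 1 higher at an unadjusted p under 0.05. Of 10 cardiac genes, Pln passed as higher with a log2 fold change of 0.78 (SE 0.18). Of 8 smooth muscle and mural genes, Pdgfrb, Rgs5 and Cspg4 passed as higher, with 0.54, 0.33 and 0.58. The others, Acta2, Myh11, Cnn1, Tagln and Smtn, had no call, with 0.26, 0.04, 0.51, 0.26 and -0.02. Of all genes tested, 5.1% passed as higher and 5.89% as lower.

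The non-muscle relatives of the genes had small fold changes. Over 18 paralogues used in other tissues, among them Ckb, Eno1, Eno2, Pgam1, Pygb, Cox6a1, Rpl3 and Atp2a2, the median log2 fold change was 0.07, against 2.85 for the muscle genes, and the sums ran from 5890.9 to 6135.1 CPM under MS275 and from 5713.8 to 5750.8 CPM under vehicle. By edgeR's test Actn1 (0.21, SE 0.06) and Actn4 (0.17, SE 0.04) passed as higher, against 3 genes by DESeq2, 2 by limma voom and 6 at an unadjusted p under 0.05, and 0 passed as lower by edgeR, DESeq2 or limma voom, with 1 lower at an unadjusted p under 0.05. By edgeR's test 5.1% of all genes passed as higher and 5.89% as lower.

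Markers of several other cell types were also highest in MS275 replicate 1. Fibroblast genes summed to 793.6, 657.6 and 651.5 CPM under MS275 and 758.6, 668.7 and 687.0 CPM under vehicle. The satellite glia and Schwann cell sums were highest in MS275 replicate 3, and the spinal cord glia sum in vehicle replicate 1. Neutrophil genes summed to 256.0, 45.4 and 75.7 CPM under MS275 and 68.8, 62.5 and 41.4 CPM under vehicle. Erythroid genes summed to 157.3, 33.0 and 50.6 CPM under MS275 and 66.6, 55.7 and 66.5 CPM under vehicle. In MS275 replicates 2 and 3 the erythroid sum lay below every vehicle library. In vehicle replicate 3, the vehicle library richest in muscle reads, the neutrophil sum was the lowest of all 6. Of 8 neutrophil and 5 erythroid genes in the fit, 0 were called by edgeR, DESeq2 or limma voom, with 3 and 0 at an unadjusted p under 0.05. Among all genes tested, edgeR called 5.1% as higher and 5.89% as lower. Without MS275 replicate 1, 3 of the 5 erythroid genes passed as lower by edgeR's test, where 5.59% of all genes did. They were Hba-a1 (-0.6), Alas2 (-0.71) and Slc4a1 (-0.96). In that fit the median log2 fold changes were -0.71 for erythroid and 0.05 for neutrophil genes. Adipocyte genes summed to 15.3, 4.91 and 7.56 CPM under MS275 and 3.63, 3.46 and 4.64 CPM under vehicle, the same order of libraries within each group as the muscle sum, and Cfd passed as higher among the 4 in the fit, with a log2 fold change of 0.88 (SE 0.25). Smooth muscle and mural genes summed to 410.1, 375.0 and 363.7 CPM under MS275 and 311.0, 287.9 and 333.0 CPM under vehicle. Bone and cartilage genes summed to 29.8, 26.3 and 28.3 CPM under MS275 and 19.2, 22.2 and 22.3 CPM under vehicle. The sums of the adipocyte, the mural and the bone list did not overlap between the groups, and in each list vehicle replicate 3 was the highest vehicle library. No marker on the neutrophil, erythroid, adipocyte, mural and bone lists with a row in the tables was without reads. The part of these cells in the muscle result was not tested. The sensory neuron sum of MS275 replicate 1, 13484.3 CPM, lay within the range of the vehicle libraries.

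Open chromatin offered a view of the same genes in other mice. An open region lay within 1000 bp of the start of 21 of 39 genes (53.8%) in the MS275 list and 22 (56.4%) in the vehicle list, where 88% and 88.9% of 14933 tested genes had one. In both lists 17 genes had a region at the start, against 86.1% of tested genes, 4 had one only in the MS275 list, 5 only in the vehicle list and 13 in neither. For 10 genes without a RefSeq start sequence, either end of the gene was accepted. Each list pools 3 libraries and the lists differ in length, with 161788 merged regions for MS275 and 177906 for vehicle, so the difference between lists has no replicate behind it. Keeping only regions with a −log10 q of at least 5, 5 genes in the MS275 list and 11 in the vehicle list kept a region, against 76.8% and 80.1% of tested genes.

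**Figure D5:**
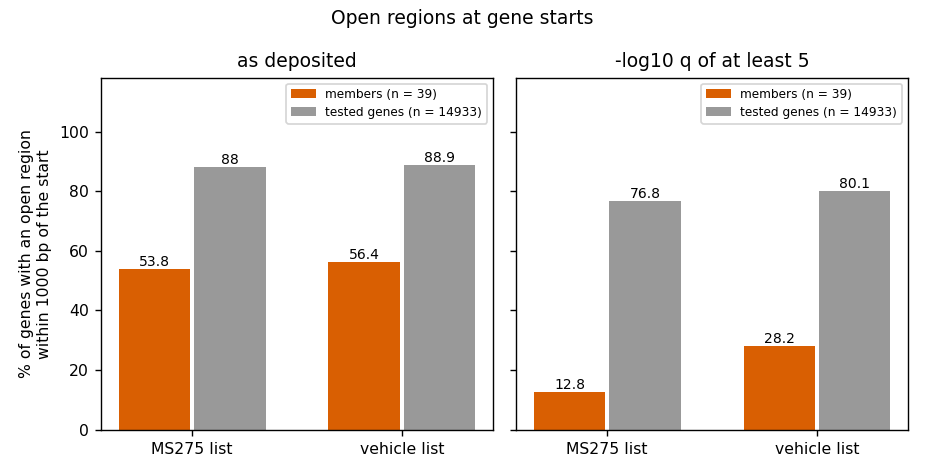
Share of the 39 muscle genes and of 14933 tested genes with an open region within 1000 bp of the start, in the MS275 and the vehicle list, for all deposited regions (left) and for those with a −log10 q of at least 5 (right). The muscle genes reach 53.8% and 56.4% on the left and 12.8% and 28.2% on the right, below the tested genes in each.

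No deposited region lay in several of the genes. The fast genes Myh4, Myh1, Myh2 and Myl1 had none at the start or anywhere in the gene in either list. The same held for Pygm and Myot, which are on neither the fast nor the slow list. Atp2a1, whose start is shown above, had none at the start and 3 inside the gene in each list, and Ckm had one at the start in the vehicle list only. Acta1 had none at the start in the MS275 list and a pair of small regions in the vehicle list, one of them at chr8:123895308-123895533, outside the window printed above.

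The Ldb3 start was open in both groups. It lay in an open region in both lists, chr14:34588351-34588955 under MS275 and chr14:34587913-34588946 under vehicle, each of which covers the sequence with the CArG match printed above. Among the 39 genes, the highest fold enrichment near a start or gene end was at Actn3. The authors' deposited peak lists gave it 4.25 for MS275 and 4.21 for vehicle. Actn3 had no RefSeq start sequence, so its regions lie near an end that may not be the start. Among genes with a RefSeq start, Actn2 was highest in the MS275 list, with 2.88 there and 2.84 in the vehicle list. In the vehicle list Tnnc1 was highest, with 3.15. Tnnc1 had 3 vehicle regions near its start at chr14:31208312. Of these, chr14:31206487-31207335 lay upstream and did not cover the start, so 3.15 need not describe the start itself. In the MS275 list the Tnnc1 region, chr14:31208153-31208548, covered the start and had 1.75. Tnni1 had a region near its start in both lists, at chr1:135800270-135800873 under MS275 and chr1:135800334-135800941 under vehicle. Myh7, which had 1 region near its start in the MS275 list only, held 4 regions along the gene in that list and 2 in the vehicle list. Of the 39 genes, 17 overlap another annotated gene, as Eno3 does Pfn1, and reads or regions there cannot be assigned to one of them with certainty.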

How the data were processed

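The members and gene lists were chosen with earlier results of these data known. The deposited RNA values are unnormalised counts of reads for each gene symbol, from poly(A)-selected, strand-specific libraries read in pairs of 75 bp, per the labels' protocols; the submitters' processing notes name mm10 and STAR 2.7.0. Which program counted, and with which strand setting, was not given in the sources used. Rows naming no gene held 18.89% to 20.56% of a library's reads and stayed out. A model in edgeR 4.0.16, R 4.3.3, tested the counts (TMM, filterByExpr, quasi-likelihood, treatment only, Benjamini-Hochberg over 16819 genes); CPM use the normalised library sizes, and SE is the log2 fold change over the square root of F. DESeq2 1.42.0 and limma voom 3.58.1 were alternatives. The fit was tested on simulated counts. Named genes are the fast and slow pairs, the 3 members of highest mean CPM in each role (not divided by length, used only to choose names), and the 15 nonmembers most alike; values for Myh2, Tcap, Mb, Neb and the slow genes that differed between MS275 replicates were added after they were seen. The exact permutation test planned for the slow share is not given, since its contrast chose the members. Deposited ATAC lists pool replicates, with a score, a fold ratio and a −log10 q-value per region from the authors' caller; entries were merged and an overlap of 1 bp counted. Intervals cover counting error only.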

Additional observations from a re-analysis of the deposited data

How the results depend on the processing

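Fold changes of the 38 genes kept their direction under other scalings, no filter, a replicate block, DESeq2, limma voom and each left-out library, except Myl2, at -0.16 without MS275 replicate 3 (up to 1.6 with another library left out), and Myl3, at -0.12 without vehicle replicate 1 (up to 0.48). The median log2 fold change of all genes was 0.002, and 0.007 and 0.003 under the other scalings. The 19 genes called higher became 2 with limma voom, 1 at an adjusted p of 0.01 and 0 to 33 with a library left out; the 9 fast genes became 0 with limma voom (9 at an unadjusted p under 0.05), 0 at 0.01 and 0 to 11 with a library left out; the 1 slow gene became 0 to 3. The 9 other muscle genes became 16 with DESeq2, 2 at 0.01 and 1 to 31 with a library left out. Over all genes, 1849 of 16819 were called in either direction. This became 1775 with limma voom, 2088 with the replicate block and 2275 of 20375 with DESeq2. It became 350 at 0.01 and 261 to 2763 with a library left out. Leaving out a library moved the median log2 fold change of all members between 1.35 and 3.47, of fast genes between 1.82 and 4.65 and of slow genes between 0.57 and 1.15, the ratio of summed levels between 2.32 and 8.54, and the difference in slow share, MS275 minus vehicle, between -20.1 and -6.52 percentage points. With regions of −log10 q of at least 5, genes with an open start numbered 5 in the MS275 list, 11 in the vehicle list and 5 in both, instead of 21, 22 and 17. Same-numbered MS275 and vehicle libraries correlated at 0.019, 0.111 and -0.061 in their deviations from the group means. Those with unlike numbers correlated at -0.149 to 0.113. These values show no pairing by number, but they cannot exclude one. With the replicate number as a block, 23 members, 2 slow genes and 19 other muscle genes were called higher. The cause of these changes was not tested. Myh7, Myl2 and Ampd1, each with at most 120 reads in all, are limited by depth.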
